A study of Mus musculus with 12 samples.

Results

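The processed pseudogenes Gm10359, Gm12671, Gm5537, Gm14117, Gm10171, Gm8325, Gm6055 and Gm10052 had low values or values listed at 0 in the soleus of old mice with high rotarod performance. They are 8 of the 30323 genes in the deposited table, and all 8 passed the filter of a mean of at least 1 TPM, a level per transcript length scaled to the same total in each library, that 10757 genes passed. They were chosen on the difference between high functioning (HF) and low functioning (LF) libraries, so that difference is described here without a test. "Lost" would not describe all of them: Gm14117, Gm10359, Gm12671 and Gm10052 were listed above 0 in each of the 6 HF libraries, although Gm10052 was close to 0 in 2 of them.

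The 12 libraries came from the soleus, a slow muscle of the calf, and all mice were C57BL/6N males of 24 months. HF and LF mice were told apart by their performance on the accelerating rotarod, and each class held 3 laparotomy and 3 control libraries. Library numbers were assigned here within each group, since the labels give no replicate numbers. The laparotomy groups had abdominal surgery, and the muscle was taken 5 days after it, with controls matched for age. Mice of all 4 groups came from the NIA aging colony, were housed singly with free access to food, and had 8 weeks with running wheels in the home cage. The HF and LF classes thus differ in measured performance and not in an assigned treatment. Whether each library is a separate mouse is not stated in the labels, so p-values here measure the spread among libraries and no more, and that spread may be technical. A polyA pull-down and a stranded kit were used.

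A processed pseudogene is a copy of a messenger RNA that was reverse transcribed and put back into the genome, so it usually has no introns and carries no promoter of its parent gene. Such a copy keeps the letters of the messenger RNA, and a short read from a stretch that both share cannot be assigned to 1 of them by its letters. Programs that estimate TPM divide such reads between the genes by a statistical model, and the value of a near-identical copy is uncertain for that reason. The parents of the 8 pseudogenes are genes of active muscle and of cell maintenance: Gapdh and Pgk1 of glycolysis, Atpaf1 and Timm23 of the mitochondrion, Ube2v1 of ubiquitin signalling, Map1lc3b of autophagy and Hnrnpa1 of RNA processing. In each case the parent is the protein coding gene whose transcript matches the pseudogene best.

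The sequences show how little separates the 8 pseudogenes from their parents. All coordinates are of the GRCm38 build, and transcripts are those of GENCODE M21. Gm10359 (chr5:105862701-105863702, minus strand) and Gm12671 (chr4:91851668-91852669, minus strand) are 1002 bases long, are identical to each other and are found whole inside a Gapdh transcript of 1272 bases. Gm5537 (chr3:58102996-58104247, minus strand, 1252 bases) lies whole inside a Pgk1 transcript. Gm14117 (chr2:146305547-146306389, plus strand, 843 bases) lies whole inside an Atpaf1 transcript. Gm10171 (chr1:172144274-172144901, minus strand, 628 bases) lies whole inside a Timm23 transcript, and Gm10052 (chr9:123689233-123690192, minus strand, 960 bases) inside an Hnrnpa1 transcript. The first 60 bases of each are shown because the parent has the same letters, without a difference, over this stretch and over the rest of the pseudogene. The Gapdh stretch is set under that of Gm10359 as an example.
Gm10359 (chr5:105863643-105863702, minus strand): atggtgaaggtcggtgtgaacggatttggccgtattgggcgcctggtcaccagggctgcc
Gapdh (same letters): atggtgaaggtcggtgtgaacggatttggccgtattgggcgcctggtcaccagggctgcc
Gm5537 (chr3:58104188-58104247, minus strand): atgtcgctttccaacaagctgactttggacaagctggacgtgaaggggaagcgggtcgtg
Gm14117 (chr2:146305547-146305606, plus strand): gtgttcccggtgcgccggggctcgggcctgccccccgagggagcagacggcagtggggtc
Gm10171 (chr1:172144842-172144901, minus strand): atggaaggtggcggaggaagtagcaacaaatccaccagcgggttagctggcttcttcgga
Gm10052 (chr9:123690133-123690192, minus strand): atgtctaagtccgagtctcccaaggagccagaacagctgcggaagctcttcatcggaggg

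The other pair, Gm8325 and Gm6055, can be told from their parents by letters. Gm8325 (chr3:60877014-60877587, plus strand, a transcript of 453 bases) is the only 1 of the 8 annotated as a transcribed processed pseudogene. It has 97.6% identity to Ube2v1, with 2 mismatches and 9 inserted or missing bases, and the 9 bases lie together near its start. They are in capitals in the first stretch, and the Ube2v1 stretch under it lacks them. Gm6055 (chr14:48079375-48079752, minus strand, 378 bases) has 99.7% identity to Map1lc3b, and the single mismatch is in capitals in the last stretches.
Gm8325 (bases 1 to 60 of the transcript): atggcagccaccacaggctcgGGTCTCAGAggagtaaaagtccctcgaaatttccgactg
Ube2v1: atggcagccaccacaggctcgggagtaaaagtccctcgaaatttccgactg
Gm6055 (chr14:48079508-48079567, minus strand): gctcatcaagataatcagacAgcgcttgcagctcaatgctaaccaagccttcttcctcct
Map1lc3b: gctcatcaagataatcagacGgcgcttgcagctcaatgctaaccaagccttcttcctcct

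To measure what a short-read program has to go by, each pseudogene was searched for words of 31 bases, the default word length of kallisto, that occur in no other gene of the annotation on either strand. Gm8325 had 81 such words of 455 and Gm6055 had 26 of 348. The other 6 had 0, out of 598 words in Gm10171 to 1222 words in Gm5537. Each of the 7 parents had words of its own, from 671 in Timm23 to 6918 in Map1lc3b. Copies beyond the parent were also found: Gm10171 lies whole inside Gm10273 and Gm10233, and Gm10359 and Gm12671 lie whole inside Gm7336. None of the 8 overlaps an exon of another gene. Gm14117 lies on the opposite strand within the gene Ralgapa2, and Gm10052 lies on the opposite strand within Ccr9 and Gm17200.

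In the 6 LF libraries, every 1 of the 8 pseudogenes was above 1 TPM. TPM are divided by transcript length, but all members except Gm8325 and Gm6055 have no word of their own. Their levels depend on how the estimate divided shared reads, so the order below is that of the listed values only. By LF median, Gm10359 and Gm12671 were highest at 472.8 TPM each, and no other member reached their lowest LF value of 388.0 TPM. Gm8325 followed with 46.0 TPM, Gm5537 with 25.6 TPM, Gm14117 with 19.2 TPM, Gm10052 with 13.7 TPM, Gm10171 with 9.65 TPM and Gm6055 with 8.56 TPM. Among those 6, the LF ranges of neighbours in this order overlapped.

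In HF, 23 of the 48 values (8 pseudogenes in 6 libraries) were at or below 0.1 TPM, and 20 of these were listed at exactly 0. In LF, 0 of 48 values were at or below 0.1 TPM. For 6 of the 8, each HF library was below each LF library, and for Gm6055 and Gm10052 the groups overlapped. Over all genes tested, 9.31% had each HF library below each LF library. All 8 pseudogenes had lower HF than LF values past an adjusted p of 0.05 in the limma fit, as did 35.3% of all genes, and nothing is read from either count because this contrast chose the members. In bulk muscle, fewer cells of a type and less RNA per cell cannot be told apart.

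**Figure D1:**
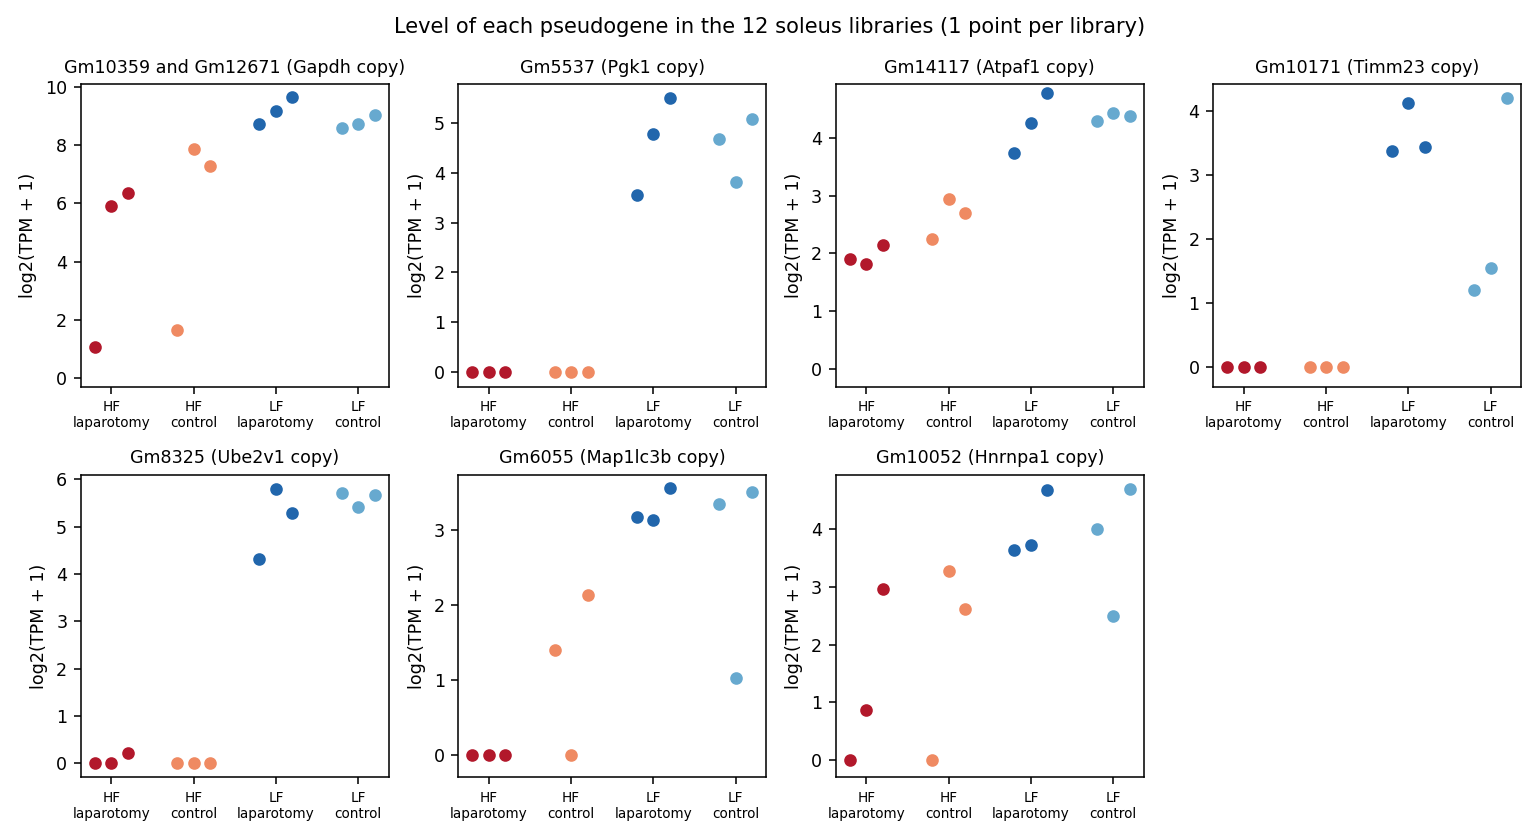
Level of each pseudogene as log2(TPM + 1), 1 point per library, in HF laparotomy, HF control, LF laparotomy and LF control (3 libraries each, left to right), with Gm10359 and Gm12671 in 1 panel because their values are equal. Gm5537 and Gm10171 lie at 0 in all 6 HF libraries, and the HF points of Gm6055 and Gm10052 reach into the LF range.

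The Gapdh copies Gm10359 and Gm12671 had equal values in each of the 12 libraries, so they count as 1 measurement, and the 8 pseudogenes give 7 distinct sets of values. Gapdh is the glycolytic enzyme that oxidises glyceraldehyde phosphate. Each of the 2 copies had 1.07, 59.3 and 81.2 TPM in HF laparotomy and 2.14, 233.3 and 154.4 TPM in HF control. In LF laparotomy each had 423.8, 577.9 and 805.2 TPM, and in LF control 388.0, 420.0 and 521.7 TPM. On the log2 scale the HF libraries spread more widely than the LF libraries: HF laparotomy 1 and HF control 1 were near the bottom of the scale, and HF control 2 was highest but still below the lowest LF library. The HF median was 14.9% of the LF median, and the difference was -3.96 on the log2(TPM + 1) scale. This difference ran from -4.53 to -2.98 when single libraries were left out, the value nearest 0 being without HF control 1.

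Gm5537 is a copy of Pgk1, the glycolytic kinase that makes ATP from bisphosphoglycerate. It was listed at 0 in all 6 HF libraries. It had 10.8, 26.6 and 44.3 TPM in LF laparotomy and 24.6, 13 and 32.9 TPM in LF control. No fold is given against a group listed at 0. The files hold no read counts, so the depth behind a value listed at 0 is unknown, and an exact 0 in estimated abundances may also come from the estimate itself.

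Gm14117 is a copy of Atpaf1, an assembly factor of the mitochondrial ATP synthase. It had 2.74, 2.54 and 3.40 TPM in HF laparotomy and 3.76, 6.65 and 5.50 TPM in HF control. In LF laparotomy it had 12.3, 18.0 and 26.3 TPM, and in LF control 18.6, 20.5 and 19.8 TPM. It was the only member above 1 TPM in each of the 12 libraries besides the Gapdh copies, and its HF values were less spread than theirs on the log2 scale. The HF median was 18.7% of the LF median, a difference of -2.01 on the log2(TPM + 1) scale.

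Gm10171 is a copy of Timm23, a channel of protein import across the inner mitochondrial membrane. It was listed at 0 in all 6 HF libraries, as Gm5537 was. It had 9.37, 16.5 and 9.92 TPM in LF laparotomy and 1.32, 1.92 and 17.5 TPM in LF control. LF control thus held both the lowest and the highest LF values of Gm10171.

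Gm8325 is the copy of Ube2v1, a partner of ubiquitin conjugating enzymes that has no catalytic cysteine of its own. In HF it was listed at 0 in 5 libraries and at 0.154 TPM in HF laparotomy 3. In LF laparotomy it had 18.9, 54.8 and 38.4 TPM, and in LF control 51.6, 41.8 and 50.2 TPM. The lowest LF value was above the single HF value that was not 0.

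Gm6055 is the copy of Map1lc3b, which encodes an LC3 protein of the autophagosome membrane. It was listed at 0 in all 3 HF laparotomy libraries and had 1.64, 1.38e-07 and 3.38 TPM in HF control. In LF laparotomy it had 7.98, 7.77 and 10.7 TPM, and in LF control 9.15, 1.03 and 10.3 TPM. LF control 2 was below 2 of the HF control libraries, so the groups overlapped.

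Gm10052 is the copy of Hnrnpa1, an RNA-binding protein that takes part in splicing. It had 3.35e-07, 0.825 and 6.80 TPM in HF laparotomy and 0.00139, 8.75 and 5.15 TPM in HF control. In LF laparotomy it had 11.5, 12.3 and 24.6 TPM, and in LF control 15.0, 4.65 and 25.1 TPM. Again LF control 2 was the lowest LF library and lay within the HF range. The HF median was 21.8% of the LF median, and the difference was -2.25 on the log2(TPM + 1) scale.

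The libraries did not take the same order in all members. HF control 2 was the highest HF library for 4 pseudogenes (Gm10359, Gm12671, Gm14117 and Gm10052), while Gm8325 was highest in HF laparotomy 3 and Gm6055 in HF control 3. HF laparotomy 1 and HF control 1 were lowest for the Gapdh copies and for Gm10052, but Gm6055 had 1.64 TPM in HF control 1 and next to 0 in HF control 2. In LF, LF laparotomy 3 was highest for 5 of the 8, LF control 3 for Gm10171 and Gm10052, and LF laparotomy 2 for Gm8325. The lowest LF library was LF laparotomy 1 for Gm8325, Gm5537 and Gm14117, LF control 1 for the Gapdh copies and Gm10171, and LF control 2 for Gm6055 and Gm10052. Summed over the 8, HF laparotomy libraries held 4.89, 122.0 and 172.7 TPM and HF control libraries 9.69, 482.0 and 322.9 TPM, against 918.5, 1291.7 and 1764.6 TPM in LF laparotomy and 896.2, 922.7 and 1199.2 TPM in LF control. The Gapdh copies make up most of that sum.

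Ranked over the 12 libraries with 1 the lowest, the mean rank of the 8 pseudogenes ran from 2.12 in HF laparotomy 1 to 4.88 in HF control 2, against 7.62 in LF control 2 to 11.1 in LF laparotomy 3. The members were chosen for lower HF values, so the split between HF and LF in these ranks is given by that choice. Both Gapdh copies enter the mean, although they count as 1 measurement. The 5 tested genes outside the sequence copies whose library order was most like that of the mean ranks were Btbd2, Tcof1, Ppargc1b and Actn2, each with a mean absolute rank difference of 0.167 over the 12 libraries, and Narfl with 0.333. The median of this measure over all tested genes outside the copies was 2.50. Nothing is read from the closeness of the 5, because the ranks come from the values that chose the members. Their HF medians were 63.0% of the LF median in Ppargc1b to 80.1% in Narfl, whereas no member with an HF median above 0.1 TPM was above the 21.8% of Gm10052. Ppargc1b, a coactivator of mitochondrial genes, had 1.69 TPM in HF and 2.69 TPM in LF (medians of 6). Actn2, an actinin of the muscle Z-disc, had 1406.9 TPM in HF and 1842.7 TPM in LF (medians of 6).

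The parent genes did not follow their pseudogenes in one direction. In the limma fit on log2(TPM + 1), with Benjamini-Hochberg adjustment over all 10757 genes, 3 of the 7 parents were lower in HF (35.3% of all genes were) and 1 was higher (6.03% of all genes were). The median HF minus LF difference of the 7 was -0.19, beside -0.15 over all genes tested. Because that overall median differs from 0 by more than 0.1, and is -0.0073 with median-of-ratios size factors, the difference of each parent is followed by its value relative to the overall median.

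Gapdh was higher in HF. It had 3771.5, 3703.9 and 3404.4 TPM in HF laparotomy and 3193.9, 3416.4 and 3917.1 TPM in HF control, against 3175.7, 3153.9 and 2750.7 TPM in LF laparotomy and 3022.9, 2802.1 and 3141.4 TPM in LF control. Each HF library was above each LF library, which was so for 1.77% of all genes. The difference was 0.25 ± 0.072 (log2, SE; 0.39 relative to the overall median; adjusted p = 0.0163, limma), and it kept its direction and its call under each of the 20 alternatives. The parent was thus higher in the libraries in which its copies Gm10359 and Gm12671 were lower. This did not hold from library to library within HF. Gapdh was highest in HF control 3, with the 2 copies together at 308.9 TPM. It was lowest of HF in HF control 1, with the copies at 4.28 TPM. HF laparotomy 1, where the copies were lowest at 2.14 TPM, had 3771.5 TPM of Gapdh. In LF laparotomy 3, where the 2 copies together were highest at 1610.4 TPM, Gapdh was lowest. Gm7336, which also holds the whole sequence of both and has 0 words of its own, had a median of 78.7 TPM in HF and 76.8 TPM in LF (difference 0.0082 ± 0.10 log2, SE; adjusted p = 0.957, limma). Of the 15 other Gapdh sequence copies with a mean of at least 1 TPM, Gapdh included, 2 were higher in HF and 0 lower, with a median difference of 0.0082. The other one that was higher was Gm3272, named after its values were seen, with 0.35 ± 0.12 (log2, SE; adjusted p = 0.0352, limma), and it passed in 10 of 19 alternatives.

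Atpaf1, Ube2v1 and Pgk1 were lower in HF. Atpaf1 had a median of 42.8 TPM in HF and 56.3 TPM in LF with no overlap, a difference of -0.42 ± 0.089 (log2, SE; -0.27 relative to the overall median; adjusted p = 0.00324, limma). Ube2v1 had 90.2 TPM in HF and 119.5 TPM in LF, a difference of -0.37 ± 0.087 (-0.22 relative to the overall median; adjusted p = 0.0056, limma). Both kept their calls under each alternative. Pgk1 had 183.1 TPM in HF and 234.2 TPM in LF, a difference of -0.32 ± 0.068 (-0.17 relative to the overall median; adjusted p = 0.00343, limma), and with median-of-ratios size factors it was -0.15 with an adjusted p of 0.148. In all 3 the HF median stayed above 75% of the LF median, while that of the copy Gm14117 was below 19% and those of the copies Gm8325 and Gm5537 were listed at 0. A second Pgk1 copy, Pgk1-rs7, had a mean under 1 TPM and was not tested. It was listed at 0 in all 6 HF libraries and had 0.809 to 3.14 TPM in LF, the same pattern of zeros as Gm5537. It matches Gm5537 with 0 mismatches over 99.92% of the length of Gm5537 and has 0 words of its own. The shared zeros are therefore not read as a second observation.

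Timm23, Map1lc3b and Hnrnpa1 did not pass the test. Timm23 had a median of 149.5 TPM in HF and 177.9 TPM in LF (-0.17 ± 0.088 log2, SE; -0.026 relative to the overall median; adjusted p = 0.130, limma), and it passed with array weights (adjusted p = 0.0258) and without LF control 2 (adjusted p = 0.0499). Map1lc3b had 111.6 TPM in HF and 127.9 TPM in LF (-0.19 ± 0.10; -0.042 relative to the overall median; adjusted p = 0.159). Hnrnpa1 had 92.7 TPM in HF and 89.7 TPM in LF (-0.0044 ± 0.071; 0.14 relative to the overall median; adjusted p = 0.967), and with median-of-ratios size factors it was 0.16 higher in HF with an adjusted p of 0.0362. Gm10273, the second gene that holds all of Gm10171, ran from 1.95 to 31.8 TPM in HF and from 4.55e-08 to 36.0 TPM in LF. Its LF values were 3.08, 7.58 and 2.55 TPM after laparotomy and 7.74, 36.0 and 4.55e-08 TPM in controls, in an order of libraries other than that of Gm10171.

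Because reads can be divided differently between copies, the pseudogenes, their parents and all other listed sequence copies were summed for each of the 7 families. These sums contain the members and are given without a test. TPM are divided by transcript length, so a sum or share of TPM is not a sum or share of reads. The Gm8325 transcript has 453 bases, for example, and the matching Ube2v1 transcript has 2041. Reads assigned to the shorter of such a pair give more TPM, so the sum itself depends on how reads were divided. For Gapdh the sum over 131 genes was 3917.3, 3974.6 and 3697.3 TPM in HF laparotomy and 3327.9, 4020.0 and 4383.8 TPM in HF control, against 4169.3, 4457.1 and 4523.4 TPM in LF laparotomy and 3923.3, 3796.0 and 4321.6 TPM in LF control. The groups overlapped, although Gapdh alone was higher in HF and the 2 copies were lower. Together the 2 copies were a median of 3.69% of this sum in HF and 23.1% in LF, and their lowest LF share of 19.8% was above their highest HF share of 11.6%.

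The sums overlapped in 3 further families and did not in the other 3. The Timm23 sum was 147.7 to 183.8 TPM in HF and 183.1 to 205.7 TPM in LF, that of Map1lc3b 100.1 to 124.6 TPM in HF and 113.0 to 164.6 TPM in LF, and that of Hnrnpa1 81.7 to 103.8 TPM in HF and 98.7 to 121.5 TPM in LF. The Ube2v1 sum was 84.8 to 113.4 TPM in HF and 118.6 to 180.3 TPM in LF, that of Pgk1 163.4 to 220.1 TPM in HF and 229.4 to 278.6 TPM in LF, and that of Atpaf1 38.3 to 52.6 TPM in HF and 58.9 to 87.5 TPM in LF. In these last 3 each HF sum was below each LF sum, while of the parents alone only Atpaf1 did not overlap, and each sum includes the member chosen for its low HF values. The median share of the pseudogene in its sum was 0% in HF and 27.7% in LF for Gm8325, 9.06% in HF and 25.4% in LF for Gm14117, and 3.42% in HF and 13.2% in LF for Gm10052. It was 0% in HF and 9.81% in LF for Gm5537, and 0% in HF and 4.97% in LF for Gm10171. Whether reads of a parent were counted under its pseudogene in LF, or the reverse in HF, was not tested, since the deposited table holds no reads.

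**Figure D2:**
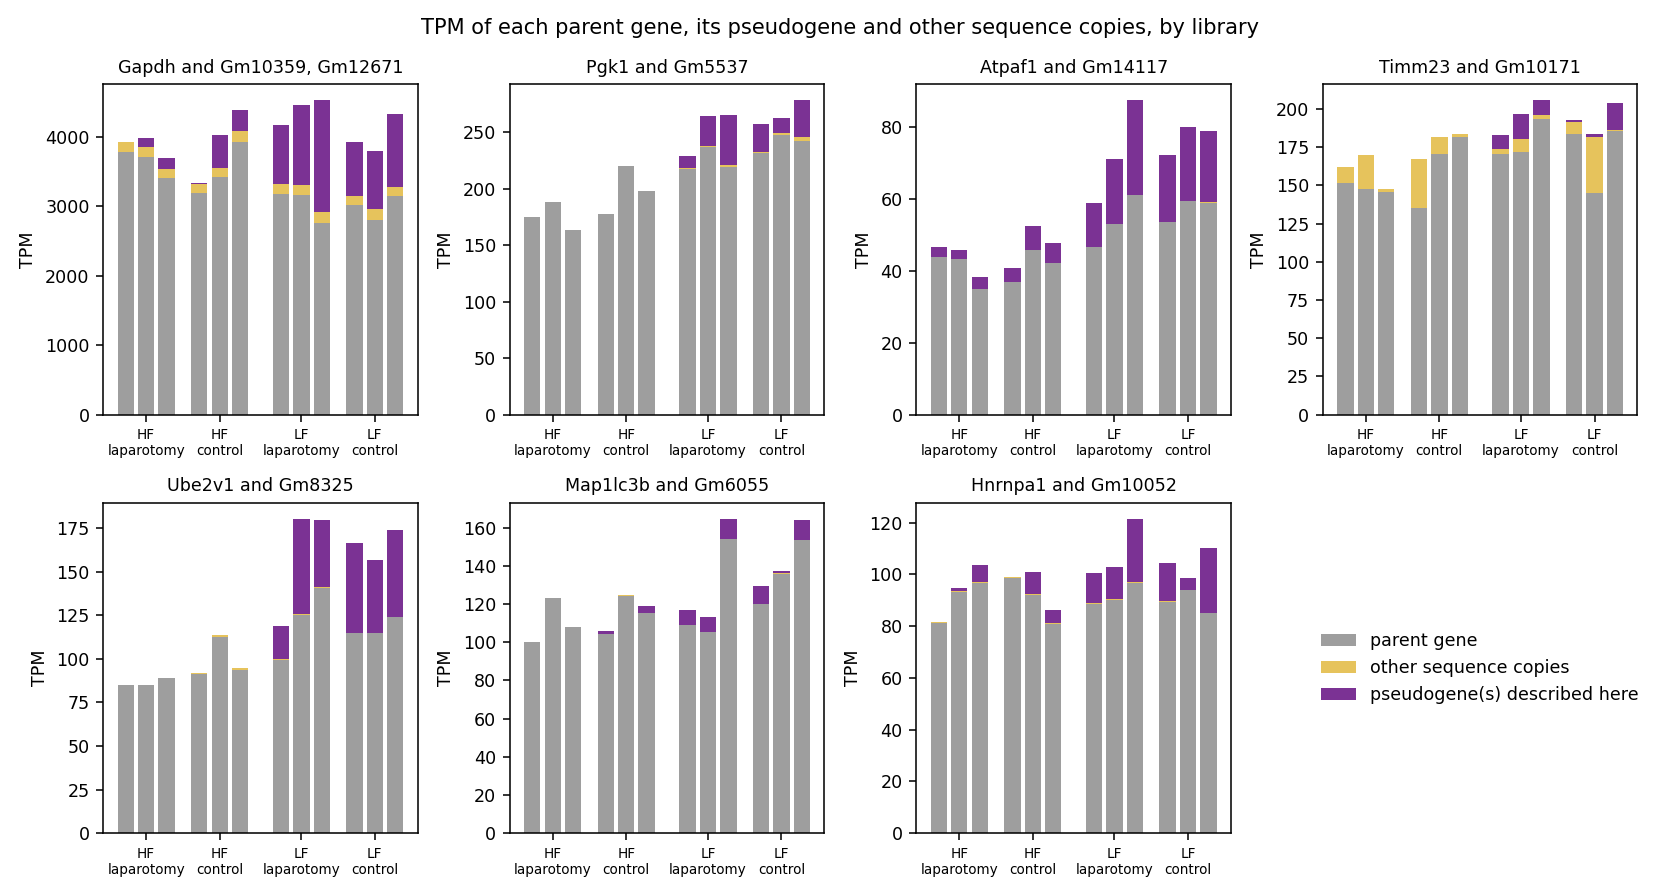
TPM (bars start at 0) in each of the 12 libraries for the 7 parent genes (grey), other sequence copies (yellow) and the pseudogenes described here (purple), with HF laparotomy, HF control, LF laparotomy and LF control from left to right. The median of the purple part is larger in LF than in HF in each panel, and the whole bars of Gapdh overlap between HF and LF (3327.9 to 4383.8 TPM in HF and 3796.0 to 4523.4 TPM in LF).

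Laparotomy was not used to choose the members, so it was tested. No gene of 10757 passed an adjusted p of 0.05 in the limma fit for laparotomy against control in HF (0% of all genes, with 665 at an unadjusted p under 0.05), in LF (0%, 291), averaged over both (0%, 747) or for the interaction of function with laparotomy (0%, 331). None of the 8 pseudogenes passed either, and 1 of the 8 had an unadjusted p under 0.05 in each of the 4 contrasts. In HF, Gm5537 and Gm10171 were listed at 0 in all 6 libraries, so they could not pass there, and Gm8325 was listed at 0 in 5. Gm10359 and Gm12671 are both counted in the 8 although they are 1 measurement. With array weights 734 genes passed in LF and 630 in the averaged contrast, among them Gm10171 in LF (adjusted p = 0.0319) and Gm14117 in the averaged contrast (-0.37, adjusted p = 0.0440, limma). In simulated data the same fit recovered 89% of changes of 1 log2 unit in HF and in LF, but 34% of changes of 0.5 in HF and 40% in LF. For the interaction it recovered 57% of changes of 1 and 0% of changes of 0.5. The changed genes were drawn from all genes tested, and several members were noisier than that. The standard error within HF or LF was 1.46 for the Gapdh copies and 0.85 for Gm10052, beside 0.10 for the parent Gapdh. These rates therefore do not hold for such members.

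Gm14117 was that 1 pseudogene in HF. It averaged 2.90 ± 0.45 TPM in HF laparotomy and 5.30 ± 1.45 TPM in HF control (SD, n = 3 each), and each HF laparotomy library was below each HF control library. The difference was -0.67 ± 0.22 (log2, SE) with an unadjusted p of 0.00992 and an adjusted p of 0.655 in limma. In LF it averaged 18.9 ± 7.02 TPM after laparotomy and 19.6 ± 0.971 TPM in controls (SD, n = 3 each), a difference of -0.12 ± 0.22 (adjusted p = 1.0, limma). The interaction was -0.56 ± 0.32 (adjusted p = 1.0, limma), so the effects in HF and LF were not shown to differ. Atpaf1, its parent, differed by -0.039 in HF (adjusted p = 0.896, limma).

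Gm10171 was the 1 pseudogene in LF, with 11.9 ± 3.99 TPM after laparotomy and 6.90 ± 9.16 TPM in controls (SD, n = 3 each). The difference was 1.33 ± 0.55 (log2, SE; unadjusted p = 0.0307, adjusted p = 1.0, limma). The groups overlapped because of LF control 3, which was higher than all 3 laparotomy libraries. Without LF control 3 the difference was 2.27 with an adjusted p of 6.30e-04, and with all 12 libraries and array weights it was 1.73 with an adjusted p of 0.0319 (limma). The fit pools the spread of all groups, and the HF values of Gm10171, all listed at 0, add none. These standard errors and p-values can therefore be too small for the spread within LF, and nothing is read from them. In HF no estimate exists because all 6 values were listed at 0, so the averaged and interaction estimates of Gm10171 hold nothing beyond its LF difference. The same holds for Gm5537.

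None of the other members had an unadjusted p under 0.05 for laparotomy within HF or within LF. Gm10359 and Gm12671 each averaged 47.2 ± 41.4 TPM in HF laparotomy and 130.0 ± 117.5 TPM in HF control, and 602.3 ± 191.8 TPM in LF laparotomy and 443.2 ± 69.9 TPM in LF control (SD, n = 3 each). Their laparotomy minus control difference was -1.16 ± 1.46 in HF (adjusted p = 0.737, limma) and 0.40 ± 1.46 in LF (adjusted p = 1.0, limma). The HF difference turned to 1.24 with array weights and to 0.54 without HF laparotomy 1, and it was -3.13 without HF control 1. In LF the difference was -0.46 ± 0.26 for Gm8325, 0.091 ± 0.39 for Gm5537, 0.66 ± 0.57 for Gm6055 and 0.29 ± 0.85 for Gm10052 (log2, SE; adjusted p = 1.0 each, limma). The standard errors of Gm8325, Gm5537 and Gm6055 also pool HF libraries listed at 0. The LF differences of Gm5537, Gm14117, Gm6055 and Gm10052 changed sign when single libraries were left out, and that of Gm8325 was 0.20 with array weights. Over the 7 distinct sets of values the median difference in LF was 0.29, beside -0.029 over all genes tested, and 5 of the 7 were above 0. In HF the 3 sets with no library listed at 0 had differences of -1.16, -0.67 and -0.69 (Gm10052, ± 0.85 SE), beside -0.12 over all genes tested. Gm6055 had the smallest unadjusted interaction p of the members, 0.0412 (adjusted p = 1.0, limma), an estimate that rests on 3 HF laparotomy libraries listed at 0. None of the 7 parents passed in any laparotomy contrast.

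**Figure D3:**
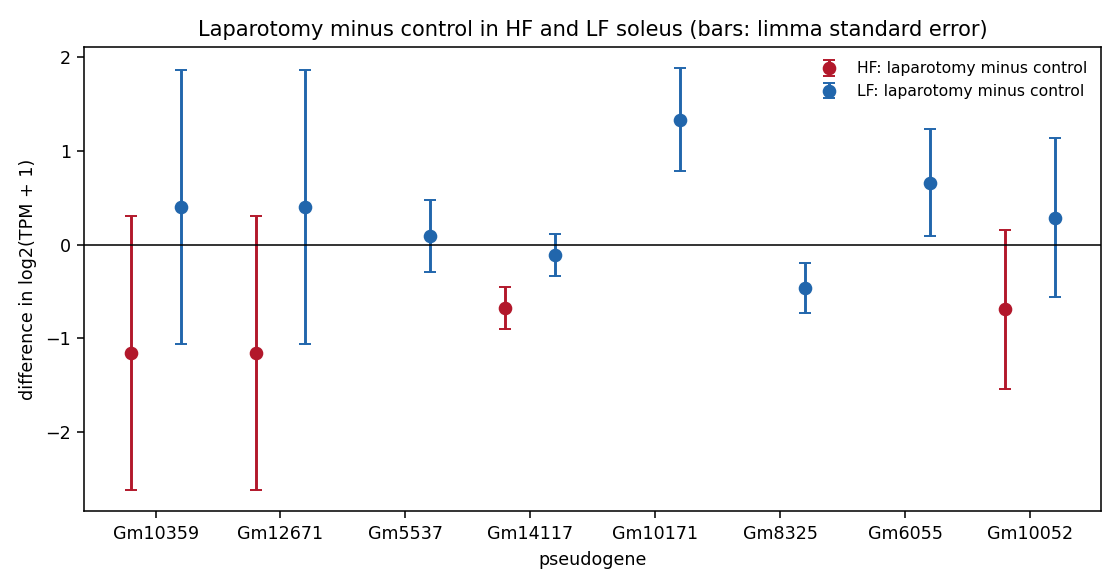
Laparotomy minus control difference in log2(TPM + 1) for each pseudogene in HF (red) and in LF (blue), with limma standard errors; in HF, pseudogenes with any library listed at 0 are left out. The HF difference of Gm14117 (-0.67 ± 0.22) and the LF difference of Gm10171 (1.33 ± 0.55) lie more than 2 standard errors from 0, and neither passed adjustment. The standard error of Gm10171 pools HF values that were all listed at 0, so it can be too small.

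Low HF values were also found in processed pseudogenes outside the 8. The classes compared here were set up after values were seen and have no test. Of the 163 other processed pseudogenes with a mean of at least 1 TPM, 17 (10.4%) had an HF minus LF difference below -1 on the log2(TPM + 1) scale and 1 (0.613%) had one above 1. Over all 10757 genes, 0.753% were below -1 and 0.0744% above 1, and among protein coding genes 0.497% were below -1. The median difference of the 163 was 0.063, beside -0.15 over all genes, and in the limma fit 26 of the 163 were higher in HF (6.03% of all genes were) and 35 lower (35.3% of all genes were).

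Low HF values occurred in pseudogenes with and without words of their own. Of the 99 other processed pseudogenes with words of their own, 11 (11.1%) were below -1, and of the 64 without, 6 (9.38%) were. A single word was enough for the first class. Among the 11, words of their own ran from 1 of 583 in Gm9797 to 958 of 958 in Gm8424, both named after their values were seen. Apart from Gm8424, each of the 11 shared most of its words with other genes. The split thus does not compare pseudogenes that are easy and hard to tell apart. Among 19 protein coding genes without a word of their own, 15.8% were below -1 and 5.26% above 1. Of the tested genes, 5 were listed at 0 in all 6 HF libraries, and all 5 are processed pseudogenes: Gm5537, Gm10171, Gm7332, Gm15801 and Gm8783, the last 3 named after their values were seen. Gm15801 and Gm8783 had equal medians and ranges, so they may be 1 measurement, although each is counted here and in the classes above. In reverse, 1 tested gene, also a processed pseudogene, was listed at 0 in all 6 LF libraries.

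**Figure D4:**
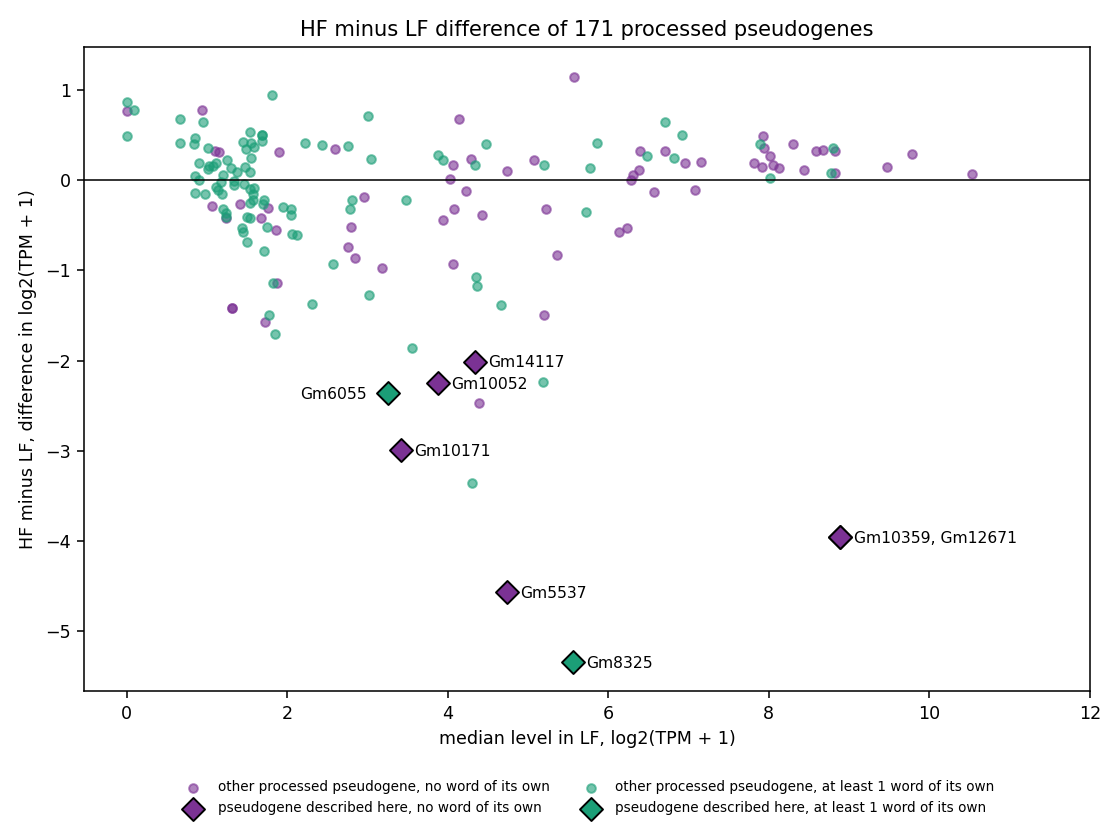
HF minus LF difference in log2(TPM + 1) against the median LF level in log2(TPM + 1) for 171 processed pseudogenes, by whether a 31-base word of its own exists, with the 8 described here as diamonds. The 8 lie between -5.34 and -2.01, a range that also holds Eif4a-ps4 (-3.36), Ptges3-ps (-2.47) and Rpl14-ps1 (-2.24). Differences of pseudogenes listed at 0 in HF depend on the pseudocount of 1 TPM.

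Over the 12 libraries TPM summed to 956473.1 to 962830.5, 17709 to 18100 genes were above 0 in HF and 16993 to 18148 in LF, and mitochondrially encoded genes took 32.3% to 35.9% of TPM in HF and 26.4% to 39.7% in LF. All 12 muscle fibre markers were detected. In the limma fit 2 were higher and 3 lower in HF, beside 6.03% and 35.3% of all genes. Their sums overlapped (70777.3 to 84611.9 TPM in HF and 65405.9 to 86100.6 TPM in LF). Of 7 tested Schwann and nerve markers, 3 were higher in HF in the limma fit, beside 6.03% of all genes, and the sums of the 8 listed narrowly did not overlap (80.9 to 255.6 TPM in HF and 65.6 to 80.6 TPM in LF). The top HF sum was that of HF laparotomy 3 alone, and the next was 110.0 TPM in HF control 3. Of 10 endothelial markers, 4 were higher in HF, beside 6.03% of all genes, and the sums overlapped (238.9 to 324.9 TPM in HF and 197.0 to 268.5 TPM in LF). Of the tested fibroadipogenic markers 1 of 7 was higher in HF, and of the adipocyte markers 1 of 4, beside 6.03% of all genes. Of 7 macrophage and 5 erythroid markers 0 were. In these 4 lists 0 were lower, beside 35.3% of all genes, and the sums overlapped. No marker of these lists was at 0 in all libraries, although the lowest adipocyte marker averaged 0.0046 TPM. The part of these markers in the values of the pseudogenes was not tested.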

How the data were processed

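Gene-level TPM of 12 mouse soleus libraries were used as the authors deposited them. Per the submitters' processing notes, kallisto, DESeq2 and GRCm38 were used, in roles and versions that the notes do not give. Batch, read counts, annotation and strand setting were not given in the sources used here. Depth is thus unknown, and no counting interval was computed. Of the identifiers in the table, 29857 matched a symbol in GENCODE M21 and 466 did not.

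Log2(TPM + 1) was fitted with limma 3.58.1 in R 4.3.3 (mean-variance trend, 4 group means, 8 residual degrees of freedom, two-sided) for the genes that averaged 1 TPM or more, with Benjamini-Hochberg adjustment over these genes and a threshold of 0.05. HF minus LF differences are averaged over laparotomy and control. Sequence copies are genes whose transcript matched the longest transcript of a member with BLAST 2.17.0 at 90% identity or more over 80% or more of its length. The parent was the protein coding copy with the highest bit score. A word of its own is a 31-base word found in no other gene of GENCODE M21 on either strand. The text names the members, for each member the parent and, where they bear on a value, those of its copies among its 3 highest in mean TPM, and the 5 genes most like the members in library order. The members and lists were chosen with earlier results of these data known. Leaving out each library and the other alternatives are given in the closing section. The fit was tested on simulated data with 200 of 10757 genes changed.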

Additional observations from a re-analysis of the deposited data

How the results depend on the processing

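Counts of genes past the threshold for HF against LF were 4447 (649 higher in HF, 3798 lower), 4300 with median-of-ratios size factors (1872 higher, 2428 lower), 4388 with quantile normalization (2020 higher, 2368 lower), 4366 with TPM rescaled without mitochondrially encoded and the 10 highest genes (1073 higher, 3293 lower), 6894 with array weights and 3623 to 5106 without each library. For laparotomy they were, in the order HF, LF, averaged and interaction, 1, 5, 2 and 2 without a filter on low values, 3, 734, 630 and 55 with array weights, and at most 1, 1, 2 and 1 (from 0) without each library. Of the members, with array weights 1 passed in LF (Gm10171, 1.73, adjusted p = 0.0319, limma) and 1 in the averaged contrast (Gm14117, -0.37, adjusted p = 0.0440, limma). Without each library 0 to 1 passed in LF, in the averaged contrast and in the interaction, in each case Gm10171 without LF control 3, where the last 2 only restate the LF difference because its HF values are all 0. Those zeros also add no spread to the pooled standard error, so the p-values of Gm10171 can be too small. The HF minus LF differences of members listed at 0 depend on the pseudocount: with 0.1 TPM they were -8.44 for Gm8325, -7.83 for Gm5537, -6.03 for Gm10171 and -4.48 for Gm6055, against -5.34, -4.57, -2.99 and -2.36 with 1 TPM. No member changed direction in HF minus LF under any alternative run. With size factors Hnrnpa1 turned to 0.164 and the Gapdh family sum to 0.0574, from -0.0044 and -0.11. At 95% identity 83 genes counted as sequence copies, and at 85% over 50% of the length 261, against 154. The causes were not tested. No paired analysis was possible because the labels give no replicate numbers, and those assigned here carry no match between groups. What depth limits is unknown, since the table holds no counts.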

Other observations

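Eif4a-ps4, Ptges3-ps and Rpl14-ps1, named here after their values were seen, are further processed pseudogenes with an HF minus LF difference within the range of the 8. In each of them every HF library was below every LF library. Eif4a-ps4 had 1.80e-09 to 4.82 TPM in HF and 16.1 to 28.0 TPM in LF, and it has 31 words of its own. Ptges3-ps had 0 to 7.90 TPM in HF and 14.4 to 23.0 TPM in LF, with 0 words of its own. Rpl14-ps1 had 0.0214 to 15.8 TPM in HF and 22.5 to 51.0 TPM in LF, with 91 words of its own. Gm7332, listed at 0 in all 6 HF libraries, had 3.88e-09 to 5.67 TPM in LF and has 41 words of its own. Gm15801 and Gm8783 had the same range as each other, 0 in HF and 0 to 7.53 TPM in LF, and each has 0 words of its own. Rpl38-ps2 was the gene listed at 0 in all 6 LF libraries, with 0 to 23.5 TPM in HF.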
